A study of Mus musculus with 56 samples.

Results

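Gastrocnemius muscle of 7 female (FCE) and 7 male (MCE) control mice that had access to running wheels was compared on autosomal genes. The members were chosen by the sample labels alone (controls, exercise, and sex), and sex chromosomes and the mitochondrial genome were left out. Of 15539 genes in the deposited table, 14975 lie on an autosome in GENCODE M21 (build GRCm38), and 13058 of those had enough counts to be tested. The study sequenced 56 mice, 7 for each combination of sex, genotype and wheel (running or locked). All mice were C57Bl/6 on a chow diet, and the labels give an age of 5 months but also place the 10 weeks of wheel exposure between week 10 and week 20 of age. FCE and MCE mice are labelled controls with running wheels, which the study's methods describe as littermates with floxed Elavl1 (HuR) alleles. Other groups used here are the female and male controls with locked wheels and the female and male HuR-labelled mice with running wheels, in which Cre under the Mlc1f (Myl1) promoter of skeletal muscle acts on the floxed alleles. How far each mouse ran, and when it last ran before the muscle was taken, is not given in the sources used here, so a difference between FCE and MCE mice covers sex together with any difference in running.

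Gastrocnemius is a mixed muscle dominated by fast fibres. Its contractile genes mark fibre types: slow fibres express Myh7 and slow troponins and are rich in mitochondria, whereas fast fibres express Myh2, Myh1 or Myh4. Muscle of male mice is known for its response to androgens, and the synthesis of polyamines, small cations made from ornithine and needed for growth, is one of the pathways known to respond to them.

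The counts of the 14 mice summed to 6639782 to 14185578 in females (median 10129311) and to 12792831 to 21633091 in males (median 14855281), so that female libraries were shallower. Gm42418, which overlaps ribosomal RNA, took 11.5% to 13.1% of the counts in females and 6.51% to 9.78% in males. Both differences in library make-up move with sex, and their part in the results was not tested beyond the thinned counts and the fit without Gm42418 given at the end. Xist and 4 genes of chromosome Y matched the labelled sex in all 14 mice. Elavl1 itself was at 55.2 CPM (counts per 1e+06 of the normalized total) in female HuR-labelled running mice and 55.0 in FCE mice, and at 62.3 CPM in male HuR-labelled running mice and 47.8 in MCE mice, so that it was not lower in the labelled mice and the word labelled is kept here. By qPCR, the study reports lower Elavl1 mRNA in gastrocnemius of its knockout mice than of controls. Whether counts summed over the gene register the deletion was not tested. The labelled muscle was checked against contractile markers: the lowest value of any mouse was 1324 CPM for Myh2, 1542 CPM for Myh1 and 24897 CPM for Myh4. Single mice stood apart in transcripts of other tissues. Neuron markers summed to 108 CPM in FCE mouse 27 and 50.6 in FCE mouse 28, against 4.78 to 31.3 in the other 12, and liver markers summed to 194 CPM in FCE mouse 26, 160.4 in MCE mouse 28 and 158 in MCE mouse 5, against 7.53 to 62.6 in the others. Sums over a list, here and below, divide by the total counts of each mouse, without the normalization used for single genes. They therefore carry the difference in Gm42418. List counts that change without these mice are given beside the list or together after the lists.

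Between FCE and MCE mice, 1181 of 13058 autosomal genes (9.04%) passed an adjusted p of 0.05 in limma. Of these, 526 (4.03% of genes tested) were higher in females and 655 (5.02%) were lower, and the median log2 fold change of all autosomal genes tested, female over male, was 0.0017. The list counts below are to be read beside these shares, and no test of a list was run. The differences were mostly small, with a median size of 1.4-fold over the called genes, and 192 (94 higher, 98 lower) reached 2-fold. In 395 genes (3.02%) the values of the 7 females did not overlap with those of the 7 males. The count fell to 690 without FCE mice 27 and 28 (324 higher, 366 lower), with 619 of them shared with the 1181, and without the 3 mice high in liver markers it was 1023. Every p-value below sets a difference between groups against the spread between mice within the groups fitted together. The labels say only that the samples are separate mice.

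The polyamine genes Amd1, Amd2, Odc1 and Smox were lower in females. Of 11 polyamine genes tested, 4 were lower in females and 0 were higher, with a list median log2 fold change of -0.32. The summed CPM of the list was 228 to 283 in females and 759.8 to 969 in males. Leaving out FCE mice 27 and 28 gave 5 lower, and leaving out the mice high in liver markers gave 4 lower.

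Amd1 encodes S-adenosylmethionine decarboxylase, the enzyme that supplies aminopropyl groups for spermidine and spermine. It lies at chr10:40287458-40302186, minus strand. Amd1 was at 36.9 to 64 CPM (median 45.6) in females and at 355 to 513 CPM (median 367) in males, and each male was above all females. The difference was the called autosomal change with the smallest adjusted p among the genes named here (log2 fold change -3.11, SE 0.21, adjusted p = 6.50e-13), an 8.61-fold lower level in females. The sequence before its annotated start is shown because Amd1 has the smallest adjusted p of the genes named. These are the 250 bases upstream of the RefSeq start on GRCm38.p6, chr10:40302189-40302438, minus strand, 5′ to 3′, with matches to the searched motifs in capitals.
Amd1 upstream: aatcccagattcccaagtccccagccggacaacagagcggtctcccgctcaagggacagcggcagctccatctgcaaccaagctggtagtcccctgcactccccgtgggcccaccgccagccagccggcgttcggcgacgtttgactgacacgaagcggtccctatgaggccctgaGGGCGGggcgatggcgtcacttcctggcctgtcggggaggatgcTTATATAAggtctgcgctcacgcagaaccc
Searched on both strands were AGAACA, the half-site bound by androgen and glucocorticoid receptors, CACGTG, an E-box, GGGCGG, a GC box, and TATATAA, a core promoter sequence. GGGCGG begins 74 bases before the start, and TATATAA begins 29 bases before it on the same strand, with an overlapping match on the other strand. AGAACA and CACGTG are absent from these letters. Of 31396 autosomal promoter windows of the same length, 33% hold GGGCGG, 3.05% TATATAA, 16.1% AGAACA and 6.02% CACGTG. The matches describe the letters of this window and nothing of binding.

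Amd2 is a near-identical copy of Amd1 at chr10:35708675-35711892, minus strand, and reads may have been divided between the copies, so its level is uncertain. It was at 2.21 to 6.57 CPM (median 3.54) in females and 22.9 to 36.8 CPM (median 26.4) in males (log2 fold change -2.92, SE 0.36, adjusted p = 6.85e-07). Ornithine decarboxylase, encoded by Odc1 (chr12:17544794-17551505, plus strand), makes the first polyamine, putrescine. Odc1 was at 1.91 to 4.7 CPM (median 3.21) in females against 9.58 to 17.5 CPM (median 14.5) in males, again with no overlap (log2 fold change -2.11, SE 0.27, adjusted p = 1.06e-06). Spermine oxidase, which turns spermine back into spermidine and is encoded by Smox (chr2:131491496-131525922, plus strand), was at 39.2 to 67.4 CPM (median 58.3) in females and 122 to 341 CPM (median 259) in males (log2 fold change -2.13, SE 0.23, adjusted p = 4.28e-08). Synthesis and back-conversion genes therefore stood on the same side, in all 14 mice. The same 4 genes were lower in females in locked-wheel controls, where Amd1 differed by -3.11, Odc1 by -2.07 and Smox by -2.0 (log2), and the sex by wheel interaction was not called for any of them (adjusted p 0.297 to 0.972).

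**Figure D1:**
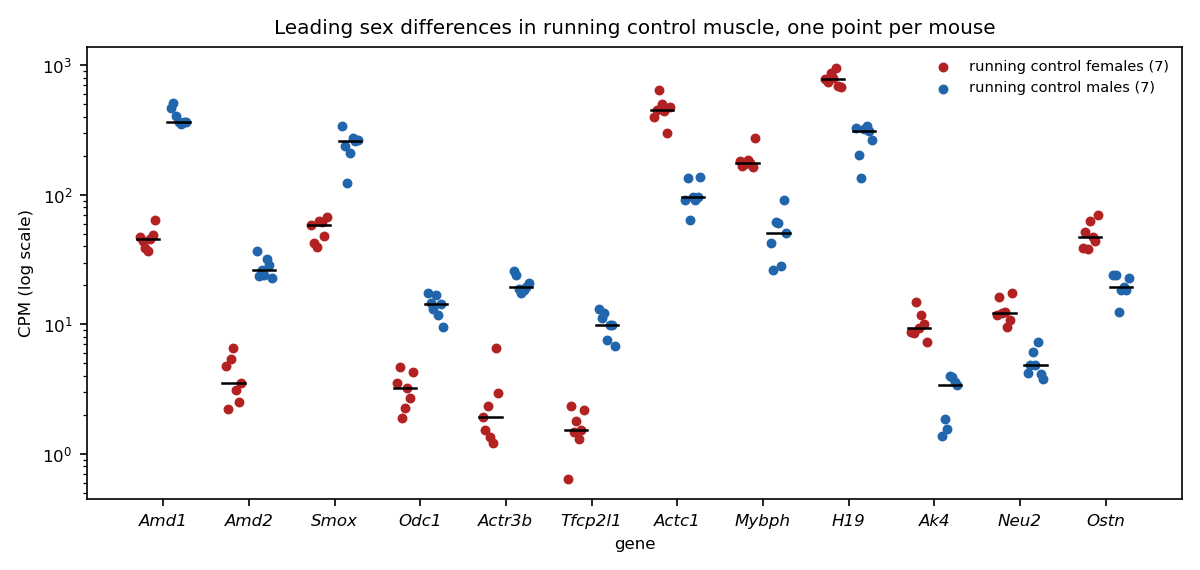
Normalized level in CPM on a log axis of 12 genes with large sex differences in running controls, with 1 point per mouse (7 females, 7 males) and a line at the group median. Amd1, Amd2, Smox, Odc1, Actr3b and Tfcp2l1 lie lower in all 7 females and the other 6 genes lie higher, with no overlap of the groups. All but Smox and Odc1 were named by a rule that required this.

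Several other large falls in females rested on transcripts that were almost absent from female libraries. Slc30a2, which encodes a zinc exporter (chr4:134343181-134354484, plus strand), was at 0 to 0.702 CPM (median 0.294) in females, 17 counts in all, and at 6.58 to 11.6 CPM (median 8.03) in males (log2 fold change -5.58, SE 0.74, adjusted p = 2.10e-06). The peptide transporter family member Slc15a5 (chr6:137983586-138079916, minus strand) was at 0 to 0.747 CPM (median 0.10) and 6.98 to 11.7 CPM (median 8.28) in the same order (log2 fold change -5.49, SE 0.84, adjusted p = 2.57e-05), with 19 counts over the 7 females. At such counts the size of the fold depends on the offset added before the logarithm. The highest female value of either gene was below the lowest male value. The largest rises and falls are named only where the sexes do not overlap, so this adds no support. Cacna2d4, an auxiliary subunit of calcium channels (chr6:119236526-119352407, plus strand), was at 0 to 0.778 CPM (median 0.301) in females and 1.95 to 4.57 CPM (median 3.79) in males (log2 fold change -3.28, SE 0.53, adjusted p = 5.03e-05).

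Other genes with large falls were detected in both sexes. Actr3b, a relative of the actin-nucleating subunit Arp3 (chr5:25759997-25850688, plus strand), was at 1.2 to 6.59 CPM (median 1.94) in females and 17.3 to 25.9 CPM (median 19.5) in males (log2 fold change -3.07, SE 0.38, adjusted p = 5.51e-07). Odf3l2, a relative of sperm outer dense fibre proteins (chr10:79639526-79645738, minus strand), was at 0.881 to 4.93 CPM (median 3.33) and 17.3 to 30.1 CPM (median 19) (log2 fold change -2.81, SE 0.33, adjusted p = 2.86e-07), and the transcription factor gene Tfcp2l1 (chr1:118627945-118685168, plus strand) at 0.645 to 2.35 CPM (median 1.52) and 6.82 to 13.1 CPM (median 9.89) (log2 fold change -2.71, SE 0.30, adjusted p = 1.00e-07). The groups did not overlap for any of the 3, which the naming rule required. Immune or antisense transcripts at low level completed the 12 largest falls with no overlap. The lymphocyte receptor gene Cd27 gave 8 counts over all females and 224 over all males, complement component C7 gave 6 and 196, the immunoglobulin constant region Ighg2c gave 12 and 200, and Irx3os, antisense to Irx3, gave 8 and 155. Whether reads were counted by strand is not given in the sources used here, so reads of Irx3os and of its partner cannot be told apart.

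The contractile protein genes Actc1 and Mybph were among the 12 largest rises in females with no overlap. Cardiac α-actin, encoded by Actc1 (chr2:114047282-114053548, minus strand), is the main sarcomeric actin of embryonic and regenerating muscle. It was at 302 to 640.2 CPM (median 449) in females and 64.5 to 137 CPM (median 95.9) in males (log2 fold change 2.18, SE 0.20, adjusted p = 9.82e-10), a 4.53-fold higher level. Its coding sequence is close to that of skeletal α-actin, which is far more abundant in muscle, so part of its reads may belong to that gene. Mybph, which encodes myosin-binding protein H (chr1:134193448-134201232, plus strand), was at 163 to 273 CPM (median 175) in females and 26.1 to 90.6 CPM (median 51.1) in males (log2 fold change 1.98, SE 0.32, adjusted p = 5.39e-05). The other 5 tested members of the embryonic and neonatal contractile list had positive log2 fold changes and did not pass.

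H19, an imprinted noncoding RNA of growing muscle (chr7:142575529-142578143, minus strand), was at 675 to 961 CPM (median 790.3) in females and 134 to 337 CPM (median 313) in males (log2 fold change 1.59, SE 0.21, adjusted p = 2.45e-06). Its imprinted neighbour Igf2 (chr7:142650766-142666816, minus strand), which encodes a fetal growth factor, was at 25.3 to 32 CPM (median 27.4) and 15.4 to 23.4 CPM (median 18.1) (log2 fold change 0.50, SE 0.11, adjusted p = 0.00180). For both genes each female was above all males, which the naming rule required of H19 but not of Igf2. Ostn, the gene of the muscle-secreted peptide musclin (chr16:27307489-27351212, plus strand), was at 38.3 to 69.4 CPM (median 46.9) in females and 12.5 to 24.1 CPM (median 19.4) in males (log2 fold change 1.32, SE 0.19, adjusted p = 1.15e-05).

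The other rises came from enzymes and signalling proteins. The mitochondrial adenylate kinase gene Ak4 (chr4:101419277-101466995, plus strand) was at 7.35 to 14.8 CPM (median 9.41) in females and 1.37 to 4.01 CPM (median 3.41) in males (log2 fold change 1.96, SE 0.25, adjusted p = 1.04e-06), and the cytosolic sialidase gene Neu2 (chr1:87509889-87597845, plus strand) at 9.53 to 17.4 CPM (median 12.3) and 3.82 to 7.27 CPM (median 4.84) (log2 fold change 1.37, SE 0.15, adjusted p = 6.31e-08). Pnpla3, a lipid droplet protein gene (chr15:84167837-84187236, plus strand), was at 5.44 to 11.7 CPM (median 8.37) in females and 1.47 to 4.76 CPM (median 3.4) in males (log2 fold change 1.32, SE 0.25, adjusted p = 4.22e-04). No female value of these 3 genes fell within the male range, which the naming rule required. Pla2g5, a secreted phospholipase gene (chr4:138799244-138863482, minus strand), had the largest rise, at 1.76 to 5.02 CPM (median 3.32) in females against 0.148 to 1.28 CPM (median 0.556) in males (log2 fold change 2.63, SE 0.47, adjusted p = 2.12e-04). Stc2, which encodes the secreted glycoprotein stanniocalcin (chr11:31357307-31370074, minus strand), was at 1.66 to 4.38 CPM (median 3.23) and 0.213 to 1.34 CPM (median 0.649) (log2 fold change 2.36, SE 0.45, adjusted p = 5.30e-04). Klhl33, of the kelch-like family, and Mettl21e, a lysine methyltransferase of muscle, rose by 2.08 (SE 0.43) and 1.32 (SE 0.29) on the log2 scale from male medians of 0.354 and 2.73 CPM.

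Most slow-fibre contractile genes were higher in females. All 14 listed genes were tested, 9 were higher and 0 lower, and the median log2 fold change was 0.59, against 0.0017 for all autosomal genes. The list summed to 2739 to 3714 CPM in females and 1861 to 2673 CPM in males, with no overlap of the groups. The slow myosin heavy chain gene Myh7 (chr14:54970684-54994626, minus strand) was at 78.8 to 126 CPM (median 101) in females and 42.4 to 81.3 CPM (median 54.8) in males (log2 fold change 0.79, SE 0.17, adjusted p = 0.00221), so that the groups overlapped slightly. Slow troponin T, encoded by Tnnt1 (chr7:4504570-4516382, minus strand), was at 142 to 209.7 CPM (median 179) in females and 80.3 to 129 CPM (median 96.3) in males (log2 fold change 0.89, SE 0.17, adjusted p = 7.88e-04), and slow troponin I, encoded by Tnni1 (chr1:135779434-135810989, plus strand), at 59.8 to 84.3 CPM (median 76.3) and 33.2 to 58.5 CPM (median 47.7) (log2 fold change 0.73, SE 0.16, adjusted p = 0.00286). Neither troponin gene overlapped between the sexes. Casq2, the calsequestrin of cardiac and slow muscle (chr3:102086415-102146514, plus strand), was at 56.1 to 99.9 CPM (median 74.3) and 31.2 to 61.6 CPM (median 49.6) (log2 fold change 0.66, SE 0.14, adjusted p = 0.00162). Tpm3, Myl2, Myl3, Tnnc1 and Mybpc1 also rose, whereas Ankrd2 and Csrp3, stress-responsive proteins of the sarcomere, had negative values that did not pass. Without FCE mice 27 and 28, and without the mice high in liver markers, 8 of the 14 were higher and none lower. With the mouse number as a replicate block, 5 were higher and 0 lower, and the median was 0.39.

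Fast-fibre contractile genes did not move together. Of 16 tested, 1 was higher and 2 were lower, with a median of -0.02, and the summed CPM was 120920.0 to 136600.0 in females and 117520.0 to 141060.0 in males. The fast myosin heavy chains did not pass: Myh4 differed by -0.0017 (SE 0.06, adjusted p = 0.991), Myh1 by -0.20 (SE 0.12, adjusted p = 0.350) and Myh2 by 0.18 (SE 0.10, adjusted p = 0.287). Actn3, the α-actinin of fast fibres (chr19:4861216-4877909, minus strand), was at 2182 to 3024 CPM (median 2359) in females and 1472 to 2691 CPM (median 1909) in males (log2 fold change 0.35, SE 0.11, adjusted p = 0.0328). Fast troponin I, encoded by Tnni2 (chr7:142441808-142444410, plus strand), was at 7037 to 9906 CPM (median 7676) and 8549 to 11558 CPM (median 9456) (log2 fold change -0.27, SE 0.08, adjusted p = 0.0193), and the Z-disc protein gene Myoz1 (chr14:20649107-20656540, minus strand) at 914 to 1186 CPM (median 1038) and 1089 to 1613 CPM (median 1242) (log2 fold change -0.28, SE 0.08, adjusted p = 0.0175). These 3 ranges overlapped between the sexes. The Actn3 call was lost without FCE mouse 1 or 28 or MCE mouse 10, 13 or 25, and the Tnni2 call without FCE mouse 27. In bulk muscle a smaller number of cells or fibres of a kind and less of its RNA per cell cannot be told apart.

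**Figure D2:**
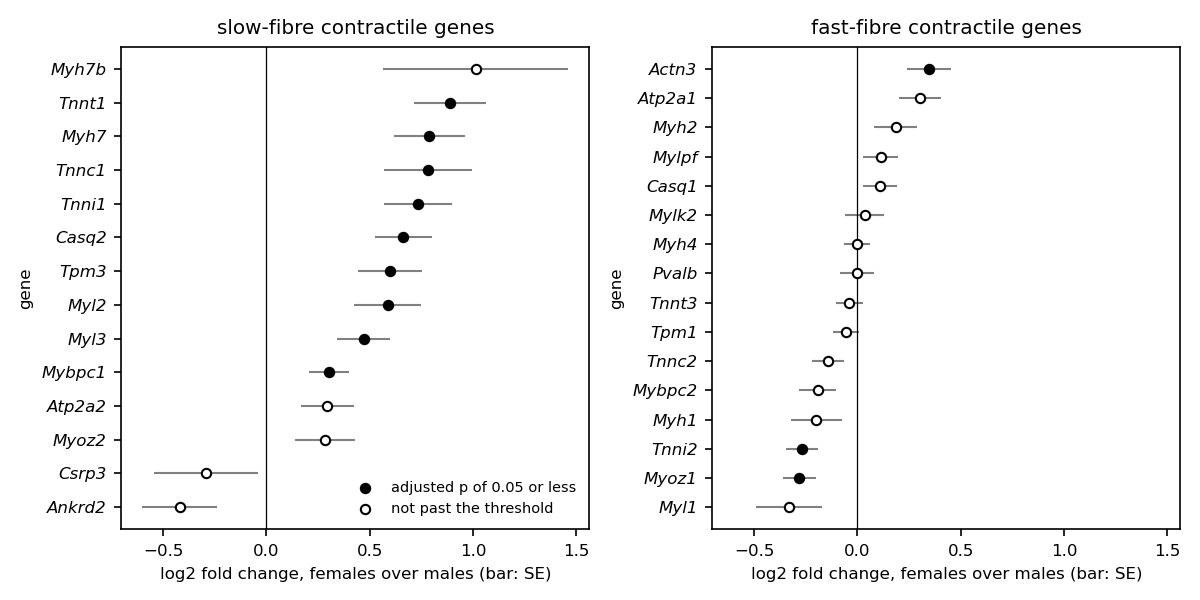
Log2 fold change of each slow-fibre (left, 14 genes) and fast-fibre (right, 16 genes) contractile gene, females over males in running controls, with bars of 1 SE. Filled points passed an adjusted p of 0.05, which 9 slow genes did on the female side and 3 fast genes did on either side of 0.

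Genes that burn fatty acids and pyruvate in mitochondria were slightly lower in females where they passed. Of 23 fatty acid oxidation genes, 0 were higher and 3 lower (median -0.14), beside 4.03% and 5.02% over all genes tested. Acadl, long-chain acyl-CoA dehydrogenase (chr1:66830839-66863277, minus strand), was at 162 to 223 CPM (median 190.2) in females and 237 to 304 CPM (median 275) in males (log2 fold change -0.45, SE 0.08, adjusted p = 3.23e-04). Hadh, the short-chain hydroxyacyl-CoA dehydrogenase (chr3:131233419-131272101, minus strand), was at 127 to 144 CPM (median 133) and 157 to 202 CPM (median 184) (log2 fold change -0.42, SE 0.08, adjusted p = 4.63e-04), and Hadhb, the thiolase subunit of the trifunctional protein (chr5:30155248-30184593, plus strand), at 93.8 to 111 CPM (median 104) and 124 to 154 CPM (median 135) (log2 fold change -0.39, SE 0.08, adjusted p = 0.00125). All 3 were without overlap, at 1.31- to 1.36-fold lower levels in females.

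In the pyruvate dehydrogenase and citrate cycle list, 7 of 27 genes were lower in females and 0 were higher (median -0.18). The summed CPM did not overlap, with 5188 to 5641 in females and 5716 to 6231 in males. These sums use total counts, of which Gm42418 took a median of 12.9% in females and 7.22% in males. The part of that share in the narrow separation was not tested. The E1 β subunit gene Pdhb (chr14:8165996-8173025, minus strand) was at 144 to 173 CPM (median 159) in females and 180.4 to 231 CPM (median 208) in males (log2 fold change -0.42, SE 0.08, adjusted p = 3.58e-04). Mpc2, a subunit of the mitochondrial pyruvate carrier (chr1:165460637-165481214, plus strand), was at 236 to 297 CPM (median 279) and 287 to 387 CPM (median 351) (log2 fold change -0.33, SE 0.08, adjusted p = 0.00423). Fumarase, encoded by Fh1, differed by -0.29 (SE 0.07, adjusted p = 0.00667) and the succinyl-CoA synthetase subunit gene Sucla2 by -0.22 (SE 0.06, adjusted p = 0.0114). Citrate synthase (Cs) and Dld were also lower. With FCE mice 27 and 28 left out, 2 of the 27 were lower.

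Nuclear-encoded subunits of the respiratory chain gave 10 lower and 0 higher of 80 (median -0.09), and the summed CPM overlapped (26010.0 to 29646 in females, 27194 to 30376 in males). The complex I subunit gene Ndufs4 (chr13:114287795-114388258, minus strand) was at 129 to 159 CPM (median 144) in females and 158 to 191 CPM (median 185) in males (log2 fold change -0.33, SE 0.08, adjusted p = 0.00718). Ndufv3 and Ndufa10, also of complex I, differed by -0.30 (SE 0.08) and -0.23 (SE 0.07), and Cox7a1, the muscle form of a cytochrome oxidase subunit, by -0.28 (SE 0.08). Without FCE mice 27 and 28 none of 81 tested subunits passed, while the differences of Ndufs4 and Ndufv3 were -0.29 and -0.29 and the list median was -0.06. Of 19 mitochondrial regulators none passed (median 0.01).

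Glycolytic and glycogen genes moved in both directions. Of 21 genes of glycolysis and lactate transport, 1 was higher and 4 were lower (median -0.02). Muscle pyruvate kinase, encoded by Pkm (chr9:59656368-59679375, plus strand), was at 820.2 to 1024 CPM (median 916) in females and 1044 to 1462 CPM (median 1118) in males (log2 fold change -0.35, SE 0.07, adjusted p = 0.00187), and hexokinase 2, encoded by Hk2 (chr6:82725025-82774454, minus strand), at 252 to 289 CPM (median 270.2) and 291 to 368 CPM (median 321) (log2 fold change -0.27, SE 0.06, adjusted p = 0.00212). Both were without overlap. Pfkfb4, a regulator of fructose bisphosphate levels, differed by -0.46 (SE 0.12, adjusted p = 0.0146), and the lactate exporter gene Slc16a3 was the fourth that fell. Eno1, the enolase of non-muscle cells, differed by 0.90 (SE 0.20, adjusted p = 0.00337), with a caution for reads shared with its processed copies, and this call was lost without FCE mice 27 and 28.

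Glycogen genes gave 3 higher and 1 lower of 17 (median -0.06). Phkg1, the catalytic subunit of muscle phosphorylase kinase (chr5:129863421-129898549, minus strand), was at 163 to 192 CPM (median 172) in females and 115 to 136 CPM (median 128) in males (log2 fold change 0.45, SE 0.07, adjusted p = 2.02e-05). Stbd1, which tethers glycogen to membranes (chr5:92603041-92606579, plus strand), was at 23.2 to 32.5 CPM (median 26.6) and 14.4 to 22.8 CPM (median 16.7) (log2 fold change 0.68, SE 0.12, adjusted p = 1.10e-04), and Ppp1r3d, a glycogen-targeting phosphatase subunit (chr2:178411206-178414472, minus strand), at 6.65 to 11.2 CPM (median 8.22) and 4.05 to 6.12 CPM (median 4.54) (log2 fold change 0.84, SE 0.24, adjusted p = 0.0225). Each of the 3 was without overlap. Pgm1, phosphoglucomutase, differed by -0.24 (SE 0.07, adjusted p = 0.0304).

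Of 19 genes of insulin signalling and glucose uptake, 2 were higher and 1 lower (median 0.06). Grb10, an imprinted adaptor that restrains the insulin receptor (chr11:11930508-12038683, minus strand), was at 30.9 to 41.6 CPM (median 35.4) in females and 15.9 to 20.7 CPM (median 18.6) in males (log2 fold change 0.96, SE 0.09, adjusted p = 9.83e-10), so every female exceeded every male. Foxo3, a forkhead factor of the insulin pathway, differed by 0.35 (SE 0.09, adjusted p = 0.00954) and Slc2a4, the insulin-responsive glucose transporter GLUT4, by -0.29 (SE 0.08, adjusted p = 0.0237). Of 22 genes of fatty acid uptake and lipid storage, 2 were lower and none higher (median -0.11), beside 5.02% of all genes lower. The acyl-CoA synthetase gene Acsl6 differed by -0.63 (SE 0.13) and the adipose triglyceride lipase gene Pnpla2 by -0.34 (SE 0.11). The Pnpla2 call (adjusted p = 0.0428) was lost without any 1 of 10 mice, FCE 1, 9, 25, 27 and 28 and MCE 5, 25, 26, 27 and 28, and without FCE mice 27 and 28 the list gave 1 higher and 1 lower.

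**Figure D3:**
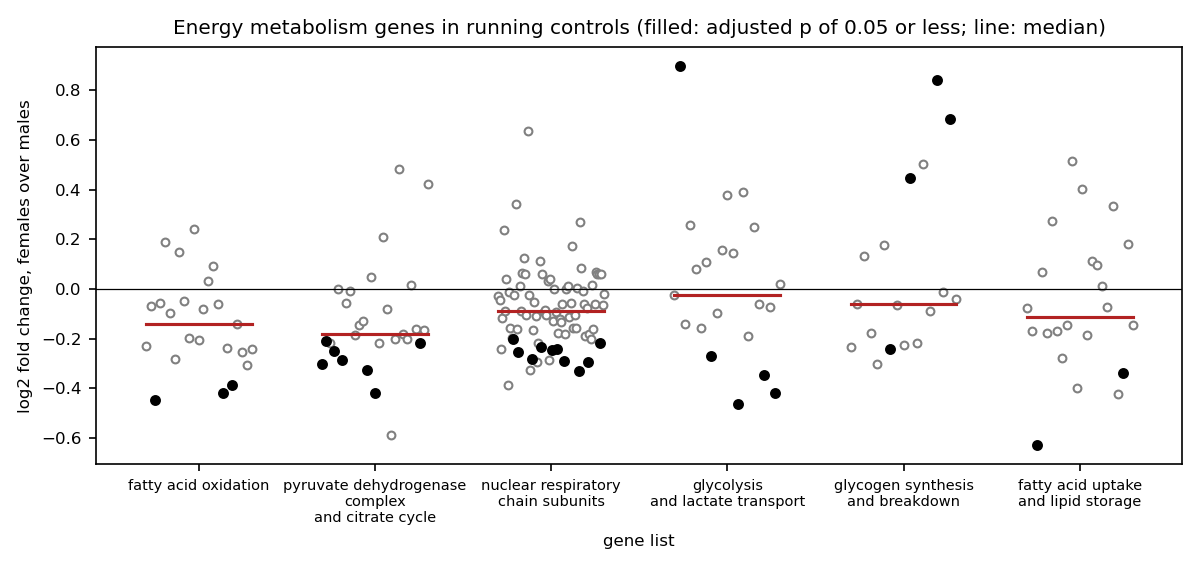
Log2 fold change, females over males in running controls, of the tested members of 6 energy metabolism lists, with 1 point per gene and a line at the list median. Filled points passed an adjusted p of 0.05. In the 3 mitochondrial lists at the left, all 20 of them lie below 0, and in the glycolysis and glycogen lists they lie on both sides.

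Part of the adipocyte markers were higher in females. Of 10 tested, 4 were higher and none lower, with a median of 0.87, and the list summed to 436 to 704 CPM in females and 306 to 573 CPM in males. The adipocyte hormone gene Retn (chr8:3655770-3660110, plus strand) was at 6.52 to 18.5 CPM (median 9.4) in females and 2.16 to 6.28 CPM (median 4.31) in males (log2 fold change 1.29, SE 0.24, adjusted p = 4.12e-04) and did not overlap. Adrb3, the β-adrenergic receptor of fat cells (chr8:27225776-27250616, minus strand), was at 0.848 to 3.73 CPM (median 1.5) and 0.0678 to 0.354 CPM (median 0.266) (log2 fold change 2.53, SE 0.53, adjusted p = 0.00152), from 117 counts in all females and 28 in all males. The lipid droplet gene Cidec (chr6:113424634-113435760, minus strand) was at 3.31 to 10.4 CPM (median 7.42) and 1.31 to 5.03 CPM (median 3.19) (log2 fold change 1.13, SE 0.33, adjusted p = 0.0228), and Cfd, which encodes adipsin (chr10:79890853-79892655, plus strand), at 47.5 to 109.5 CPM (median 75) and 20.7 to 77.3 CPM (median 46) (log2 fold change 0.80, SE 0.24, adjusted p = 0.0307). Cidec and Cfd overlapped between the sexes. The call of Cidec was lost without FCE mouse 1 or MCE mouse 5, and that of Cfd without FCE mouse 1, 5 or 25 or MCE mouse 5 or 27. The defining markers Adipoq (0.70, SE 0.31, adjusted p = 0.155) and Plin1 (0.97, SE 0.33, adjusted p = 0.0583) did not pass. With the mean of these markers as a covariate the count over all genes was 864, and 669 of these were among the 1181. The slow-fibre genes Tnnt1, Casq2, Myh7 and Tnni1 and the polyamine genes Amd1, Amd2, Smox and Odc1 stayed past the threshold. So did Acadl, Hadh, Hadhb and Pdhb. Calls lost in that fit included those of Mpc2, Fh1, Sucla2, Ndufs4, Ndufv3, Cox7a1, Ndufa10, Slc2a4, Pnpla2, Myoz1 and Tnni2. Of the brown adipocyte list, Cidea and Slc27a2 were tested and did not pass.

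Of 14 fibroblast markers, 2 were lower and none higher (median -0.01), beside 5.02% of all genes lower. Dpep1, a membrane dipeptidase (chr8:123186242-123201812, plus strand), was at 6.44 to 13.3 CPM (median 9.05) in females and 12.2 to 23.3 CPM (median 17.5) in males (log2 fold change -0.96, SE 0.16, adjusted p = 6.13e-05), and decorin, encoded by Dcn (chr10:97479609-97518143, plus strand), at 722 to 1074 CPM (median 861) and 739 to 1637 CPM (median 1181) (log2 fold change -0.45, SE 0.13, adjusted p = 0.0273). Both ranges overlapped, the Dcn call was lost without any 1 of 5 mice (FCE 1 and 27, MCE 10, 13 and 28), and the defining marker Pdgfra did not pass (0.01, SE 0.12, adjusted p = 0.983). In the list of 30 collagen and matrix genes 1 was higher and 3 were lower (median -0.03). The matrix protease gene Mmp3 (chr9:7445822-7455975, plus strand) was at 0.922 to 5.39 CPM (median 2.79) in females and 0.529 to 2.15 CPM (median 1.15) in males (log2 fold change 1.38, SE 0.36, adjusted p = 0.0104), while the collagen genes Col6a6 (-0.93, SE 0.25) and Col4a1 (-0.31, SE 0.09) were lower.

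None of 16 macrophage and leukocyte markers passed (median -0.13), with Ptprc, the pan-leukocyte gene, at 2.86 to 7.62 CPM (median 4.45) in females and 2.28 to 7.17 CPM (median 4.53) in males (adjusted p = 0.972). None of 13 endothelial markers passed (median -0.03), and Pecam1 differed by -0.10 (SE 0.08, adjusted p = 0.512). Of 10 markers of smooth muscle cells and pericytes 3 were lower. Kcnj8, a potassium channel of pericytes (chr6:142564837-142571614, minus strand), was at 11.5 to 18.1 CPM (median 13.8) in females and 17.3 to 25.1 CPM (median 19.6) in males (log2 fold change -0.57, SE 0.12, adjusted p = 0.00129), whereas Pdgfrb (-0.34, SE 0.10) and Notch3 (-0.35, SE 0.11) were closer between the sexes. The list median was -0.06. The 4 erythroid markers (median 0.15), 6 tenocyte markers (median 0.24) and 7 Schwann cell markers (median -0.14) gave no call. Hba-a1, which shares reads with Hba-a2, differed by 0.08 (SE 0.21). Of 6 satellite cell markers the cadherin gene Cdh15 was higher (0.42, SE 0.14, adjusted p = 0.0455), a call that was lost without any 1 of 9 of the 14 mice (FCE 5, 26, 27 and 28, MCE 5, 10, 13, 25 and 28), and Pax7 did not pass (0.07, SE 0.22). The Cdh15 call was also lost with DESeq2, edgeR's quasi-likelihood test and limma trend.

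**Figure D4:**
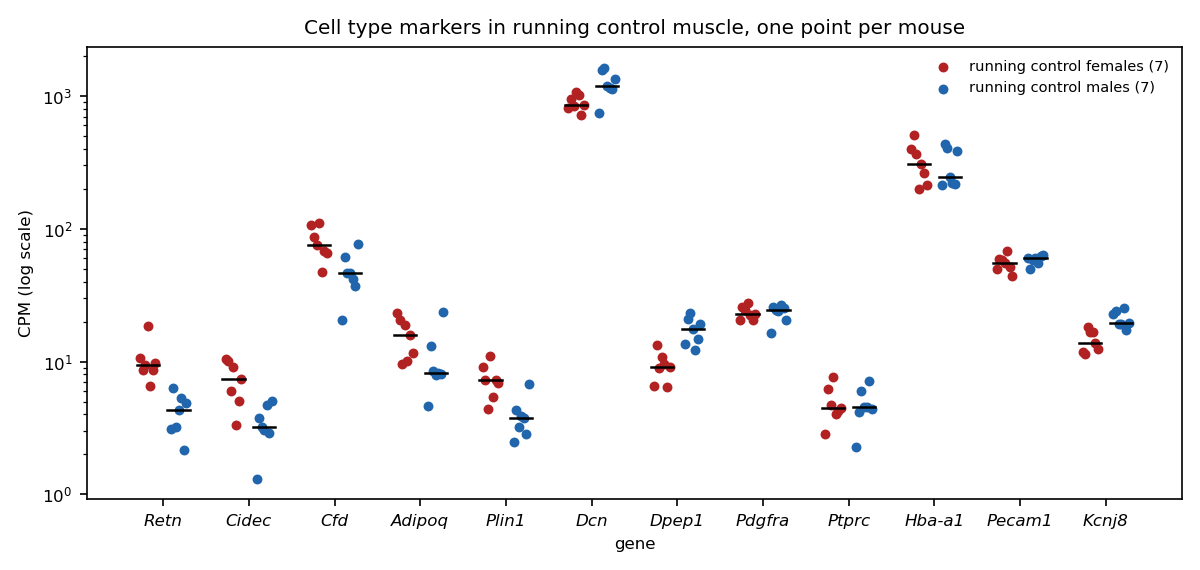
Normalized level in CPM on a log axis of 12 markers of adipocytes, fibroblasts, leukocytes, red cells, endothelial cells and pericytes in running controls, with 1 point per mouse and a line at the group median. Retn separates the 7 females from the 7 males, the adipocyte genes Cidec, Cfd, Adipoq and Plin1 overlap, and Pdgfra, Ptprc, Hba-a1 and Pecam1 lie over each other.

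Lists for tissues that gastrocnemius should not hold gave no call with all 14 mice. The median log2 fold change was 0.71 over 4 neuron markers and 0.14 over 16 liver markers, and leaving out FCE mice 27 and 28 turned the neuron median to -0.67. Alb ranged over 4.78 to 77.3 CPM (median 13.5) in females and 2.29 to 55.4 CPM (median 11.1) in males. Of pancreas genes, Ins1 and Ins2 were tested, and the pancreas list summed to 15.2 CPM in MCE mouse 28 and to at most 0.43 in the other 13. Only Krt10 was tested of the skin list, and that list summed to 28.5 CPM in MCE mouse 10. The part of these transcripts in other results was not tested beyond the counts without those mice.

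Regulators of muscle mass moved in both directions. Of 25 tested, 6 were higher and 4 lower (median -0.09). The transcriptional repressor gene Bcl6 (chr16:23965052-23988852, minus strand) was at 40.2 to 69.2 CPM (median 63.9) in females and 71.6 to 111 CPM (median 100.4) in males (log2 fold change -0.79, SE 0.13, adjusted p = 6.02e-05), and the ubiquitin ligase gene Fbxo30 (chr10:11281330-11298052, plus strand) at 5.44 to 9.69 CPM (median 7.62) and 9.86 to 12.1 CPM (median 11.7) (log2 fold change -0.59, SE 0.11, adjusted p = 5.91e-04). Neither overlapped. Gadd45a, a growth arrest gene induced in muscle atrophy (chr6:67035096-67037457, minus strand), was at 12.3 to 19.1 CPM (median 16.4) in females and 7.14 to 14.5 CPM (median 9.68) in males (log2 fold change 0.72, SE 0.16, adjusted p = 0.00348). Igf1r, Foxo3 and Cdkn1a were also higher and Igf1 was lower, and the atrophy ligase genes Fbxo32 and Trim63 and the myostatin gene Mstn did not pass.

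Hormone signalling genes gave 4 higher and 4 lower of 19 (median 0.10). Socs2, a feedback inhibitor of growth hormone signalling (chr10:95385362-95417180, minus strand), was at 43.7 to 123 CPM (median 58.7) in females and 24.1 to 65.4 CPM (median 26.1) in males (log2 fold change 1.14, SE 0.23, adjusted p = 0.00114). The growth hormone receptor gene Ghr differed by 0.34 (SE 0.09, adjusted p = 0.00933) and the nuclear receptor coactivator gene Ncoa1 by -0.33 (SE 0.08, adjusted p = 0.00885). The estrogen receptor gene Esr1 and the deiodinase gene Dio2 were higher as well. Of 17 glucocorticoid-responsive genes 2 were higher and 1 was lower (median -0.25). Sesn1, a stress-inducible inhibitor of mTOR signalling (chr10:41809935-41908424, plus strand), was at 16.7 to 24 CPM (median 19) in females and 7.67 to 12 CPM (median 9.5) in males (log2 fold change 1.0, SE 0.11, adjusted p = 1.35e-07), without overlap, and the cell cycle inhibitor gene Cdkn1a differed by 0.78 (SE 0.23). Sgk1, a kinase of salt and stress responses, differed by -0.62 (SE 0.20, adjusted p = 0.0470), a call that was lost without any 1 of 10 of the 14 mice (FCE 1, 5 and 9 and all MCE mice).

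Of 19 circadian clock genes 1 passed: the repressor gene Bhlhe41 (chr6:145858243-145865558, minus strand) was at 13.7 to 49.1 CPM (median 31.7) in females and 50.5 to 72.3 CPM (median 60.9) in males (log2 fold change -1.07, SE 0.23, adjusted p = 0.00188), with no overlap (list median -0.03). Nr4a3, a nuclear receptor gene induced by contraction, was the only 1 of 15 immediate early genes to pass (1.36, SE 0.39, adjusted p = 0.0227), and it did not pass without FCE mouse 27 or 28 or MCE mouse 10. Of 18 heat shock genes the small chaperone gene Hspb8 was lower (-0.73, SE 0.18, adjusted p = 0.00866). Over all autosomal genes tested 9.04% passed, so the clock, immediate early and heat shock lists held no larger share than that.

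At the neuromuscular junction 2 of 13 genes were higher and 1 lower (median 0.08). Musk, the receptor kinase that organizes the synapse (chr4:58285960-58374303, plus strand), was at 5.83 to 12.2 CPM (median 8.93) in females and 14.6 to 20.5 CPM (median 17.6) in males (log2 fold change -0.95, SE 0.14, adjusted p = 2.02e-05), with all females below all males. The acetylcholine receptor anchor gene Rapsn and the protein kinase A subunit gene Prkar1a differed by 0.27 (SE 0.09) and 0.18 (SE 0.06), both near the threshold (adjusted p = 0.0455 and 0.0385). Musk alone passed without FCE mice 27 and 28. Excitation-contraction coupling genes gave 2 higher and 3 lower of 22 (median 0.14). The calcium channel subunit genes Cacna2d1 and Cacnb1 differed by 0.25 (SE 0.07) and 0.32 (SE 0.09), and Mrln, which encodes the calcium pump inhibitor myoregulin, by -0.37 (SE 0.10). The junctional protein gene Trdn was just past the threshold (-0.32, SE 0.10, adjusted p = 0.0488). Without FCE mice 27 and 28 the list gave 1 higher and none lower.

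Of 15 myogenic regulators 1 was higher and 3 were lower (median -0.00031). Myogenin, the differentiation factor encoded by Myog (chr1:134289989-134292548, plus strand), was at 6.46 to 16 CPM (median 13.1) in females and 2.34 to 9.64 CPM (median 5.07) in males (log2 fold change 1.23, SE 0.26, adjusted p = 0.00181). Tead4, a transcription factor of the Hippo pathway (chr6:128224288-128300823, minus strand), was at 1.59 to 2.54 CPM (median 1.84) and 2.78 to 5.21 CPM (median 3.9) (log2 fold change -0.94, SE 0.20, adjusted p = 0.00152). Tead1 and the homeobox cofactor gene Eya1 differed by -0.26 (SE 0.07) and -0.39 (SE 0.11). Of 15 genes of capillary growth 2 were higher and 1 was lower (median 0.02), Angpt1 by 0.43 (SE 0.11), Hif1a by 0.30 (SE 0.09) and Nrp1 by -0.27 (SE 0.08). Of 16 interferon response genes Irf9 was higher (0.34, SE 0.11) and Isg15 lower (-0.98, SE 0.28), with a list median of 0.01. Beside the capillary and interferon counts, 4.03% of all genes tested were higher and 5.02% lower. Ribosomal protein genes gave 5 higher and 6 lower of 74 (median -0.03), of which Rplp0 had the smallest adjusted p (0.44, SE 0.07, adjusted p = 3.67e-05) and Rplp1 also rose (0.20, SE 0.05). Rpl34 (-0.40, SE 0.09) and Rps19 (-0.36, SE 0.09) fell. Many processed copies of these genes exist in the genome, so their counts are uncertain.

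Several calls near the threshold were lost with 1 mouse left out. Besides the genes for which this is stated above, the call was lost without FCE mouse 5 or 25 or MCE mouse 5, 10 or 28 for Pgm1 (adjusted p up to 0.0753), without FCE mouse 27 or 28 or MCE mouse 10 for Slc2a4 (up to 0.0734), without FCE mouse 27 or 28 for Col4a1 (up to 0.0584) and Isg15 (up to 0.137), and without MCE mouse 10 for Ndufv3, Cox7a1 and Ndufa10 (up to 0.0608). For Cdkn1a it was lost without FCE mouse 5 or 26 or MCE mouse 10 or 13 (up to 0.0701), for Pdgfrb without FCE mouse 1, 5 or 28 or MCE mouse 25 or 28 (up to 0.0941), and for Notch3 without FCE mouse 5, 9, 27 or 28 or MCE mouse 10 or 13 (up to 0.0775). Hif1a lost it without FCE mouse 1, 9, 27 or 28 or MCE mouse 10, 26 or 28 (up to 0.0828) and Nrp1 without FCE mouse 1, 9, 27 or 28 or MCE mouse 10, 13 or 25 (up to 0.0987). Trdn (up to 0.154), Rapsn (up to 0.13), Irf9 (up to 0.12) and Prkar1a (up to 0.0752) each lost it without any 1 of 9 to 11 of the 14 mice. In the genes named above, Tnni2 reached 0.0545, Actn3 0.095, Cidec 0.0719, Cfd 0.0871, Dcn 0.0841, Cdh15 0.133, Pnpla2 0.0966, Sgk1 0.127 and Nr4a3 0.0735 with 1 mouse left out. The sign stayed the same in each of these fits. Some list counts also changed when the mice high in neuron or liver markers were left out. Without FCE mice 27 and 28 the muscle mass list gave 3 higher and 2 lower, the fibroblast list 1 and 1, the matrix list 1 and 1, the glycolysis list 0 and 3 and the ribosomal list 4 and 1. The hormone list then gave 4 and 2, the glycogen list 3 and 0, the myogenic list 1 and 2, the fast-fibre list 0 and 1, the pericyte list 0 and 2, the insulin, capillary and interferon lists 1 and 0 each, and the immediate early list 0 and 0. Calls outside the naming rule, named after their values were seen, were S100b of the Schwann cell list (lower) and Gabpa of the mitochondrial regulators and Cry1 of the clock list (higher), and Sdc4 stood in place of Cdh15 among the satellite cell markers. Without FCE mouse 26 and MCE mice 5 and 28 the fast-fibre list gave 2 higher and 0 lower, the leukocyte list 0 and 2, the coupling list 5 and 2, the respiratory chain list 0 and 5 and the matrix list 0 and 3. The muscle mass list then gave 5 and 4, the ribosomal list 3 and 6, the citrate cycle list 1 and 5, the glycolysis list 1 and 3, the glycogen and lipid uptake lists 2 and 1 each, the glucocorticoid and neuromuscular lists 1 and 1 each, the pericyte list 0 and 2 and the capillary list 0 and 1. Thbs4 of the tenocyte list (lower) and Stmn2 of the neuron list (higher), also named after their values were seen, passed in that fit.

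The sexes were also compared in control mice with locked wheels, which share no animal with the running controls. There 2551 of 13013 autosomal genes (19.6%) were called. Of 1173 genes called in running controls and tested in both, 507 were called in locked controls too, 43.2% of the running and 20.0% of the locked calls, and 451 of the 507 had the same direction. Irrespective of the call in locked mice, 75.1% of the running calls had the same sign there, against 56.7% of all genes tested. A test of the difference itself, the sex by wheel interaction in limma, called 1533 of 12817 genes (12%), 821 with a more positive female-to-male difference in running mice and 712 with a more negative one. It called 989 without FCE mice 27 and 28.

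Many members of the connective tissue, leukocyte, erythroid and ribosomal protein lists had a called interaction. Of the 14 fibroblast markers, 13 were higher in females of the locked group (median 1.0), and the interaction was negative and called for all 14. Dcn differed by 0.72 (SE 0.14) in locked and by -0.45 (SE 0.13) in running controls, and the interaction was -1.16 (SE 0.18, adjusted p = 1.61e-04). Of the 16 macrophage and leukocyte markers, 15 were higher in locked females (median 1.08), and the interaction was called for 14, all negative. Of 30 collagen and matrix genes 26 were higher in locked females (median 0.77) with 21 negative interactions. All 4 erythroid markers were higher in locked females (median 1.49) and had called negative interactions. Ribosomal protein genes showed 53 of 74 higher in locked females (median 0.34) and 40 called negative interactions. For the respiratory chain, 28 interactions were negative and 2 positive of 80, with 16 genes higher and 4 lower in locked females.

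None of 11 polyamine genes and 1 of 14 slow-fibre genes had a called interaction, beside 12% of all genes tested. At that share, lists of this size hold few calls in any case. The slow-fibre median was 0.56 in locked and 0.59 in running controls. Fast-fibre genes gave 1 higher and 8 lower of 16 in locked females, and 4 positive interactions. For Myh4 the female-to-male difference was -0.50 (SE 0.12) in locked controls, and its interaction was 0.52 (SE 0.10, adjusted p = 0.00102). Phkg1 changed sign, at -0.28 (SE 0.07) in locked and 0.45 (SE 0.07) in running controls, and had the smallest interaction adjusted p of the genes named here (3.30e-07). Excitation-contraction coupling genes had 8 positive interactions of 22 and no negative one.

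**Figure D5:**
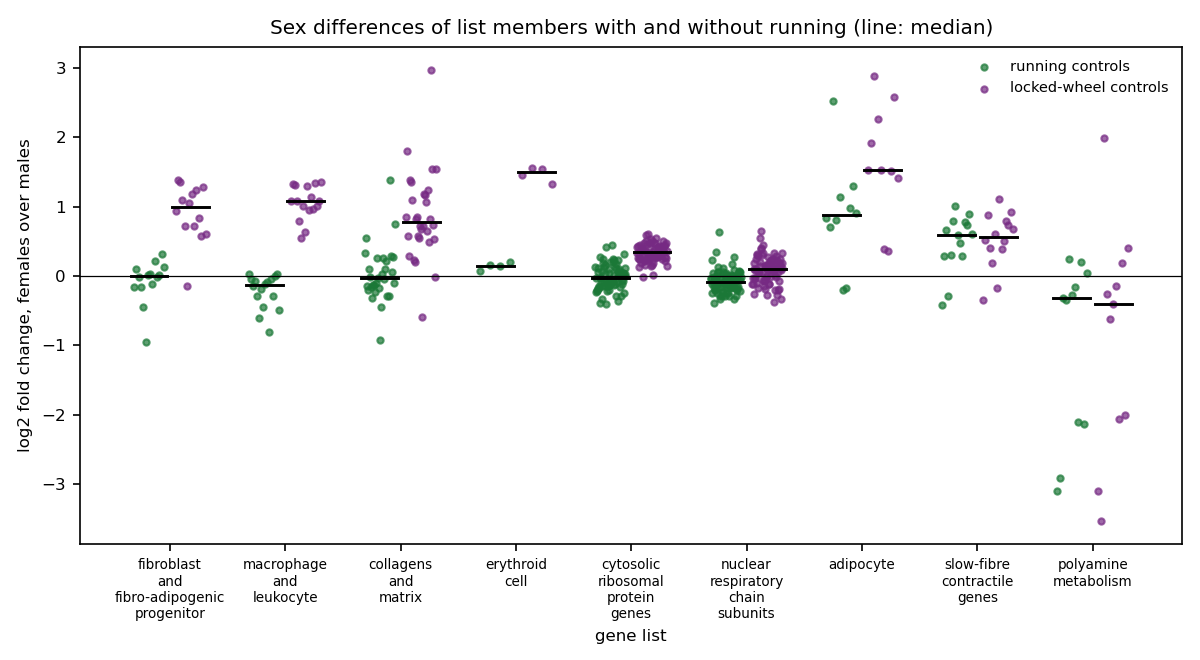
Log2 fold change, females over males, of the members of 9 gene lists in running controls and in locked-wheel controls, with 1 point per gene and a line at the list median. The fibroblast, leukocyte, matrix, erythroid and ribosomal medians lie near 0 in running controls and above 0 in locked controls, whereas the slow-fibre and polyamine medians lie close together.

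In running HuR-labelled mice, a further set of animals, 913 of 13058 autosomal genes (6.99%) were called between the sexes. Of these, 393 were also called in running controls, 33.3% of the control and 43.0% of the HuR-labelled calls, and all 393 had the same direction. The sign matched for 92.4% of the control calls, against 65.7% of all genes. Amd1 differed by -2.49 (SE 0.21), Smox by -2.4 (SE 0.24), Actc1 by 1.87 (SE 0.21) and Grb10 by 0.69 (SE 0.09) in these mice. Polyamine genes gave 0 higher and 5 lower (median -0.63), slow-fibre genes 6 and 2 (median 0.47). Fatty acid oxidation genes gave 0 and 0 (median 0.03), where running controls had 3 lower. The citrate cycle list gave 1 and 1 and the respiratory chain list 1 and 0, where running controls had 7 and 10 lower. Fibroblast markers gave 9 and 0 (median 0.43), where running controls had 2 lower. The sex by genotype interaction called 0 of 13058 genes (0%) in limma, with 1139 at an unadjusted p under 0.05, and DESeq2 called 3, named here after their values were seen: Hamp, the hepcidin gene of liver, 5830487J09Rik and Gm45220. This does not show that the sex difference is alike in both genotypes.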

How the data were processed

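The authors counted reads per gene in gastrocnemius libraries of 56 mice and deposited the counts without normalization in 1 table. Per the labels, R 4.0.3 and edgeR 3.38.4 were used and the build was GRCm38 (mm10). The aligner, the annotation and the use of strand are not given in the sources used here. The labels name a 3′ mRNA library kit, the study's methods stranded total RNA libraries, and which was used is not settled here. Genes with few reads are absent from the table (the smallest total of a gene over 56 mice is 168).

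Symbols and positions came from GENCODE M21 (15503 of 15539 genes matched). Groups followed the labels. The 28 running mice (4 groups of 7) were filtered with filterByExpr, normalized with TMM in edgeR (version 4.0.16) and weighted with voom (R 4.3.3), and limma (version 3.58.1) gave contrasts of females minus males. Locked controls and both interactions were fitted likewise over the 28 locked mice, the 28 controls or the 28 running mice. P-values were adjusted by Benjamini-Hochberg over all genes tested, the sex chromosomes included, at 0.05. CPM are TMM-normalized over the 28 mice of a wheel condition.

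Named genes are the 12 rises and 12 falls of greatest size among calls that average 10 counts or more and whose sexes do not overlap (symbols of the form Gm plus digits or ending in Rik passed over), up to 4 called members of each list, and defining markers. Other list members are named without values. Ucp1 is not analysed here, and 2 other list members are not reported by name. The members and lists were chosen with earlier results of these data known. No test of a list was run. Alternatives were DESeq2 (version 1.42.0), edgeR's quasi-likelihood test, limma trend, other scalings and filters, other sets of mice, quality weights, a 1.5-fold threshold, marker covariates, a replicate block and each mouse left out. Fits without mice high in neuron or liver markers, with thinned counts or without Gm42418 and mt-Rnr2 were chosen after seeing the data.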

Additional observations from a re-analysis of the deposited data

Results flagged for a closer look

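Among 226 groups of 7 (113 named genes in FCE and in MCE mice), 13 held 1 mouse whose gap to its nearest neighbour took up more of the range than Dixon's 95% critical value allows. Chance alone flags about 1 in 20 groups. The mouse was the highest of its group for Mybph in FCE mouse 28 (273 CPM, next 184), Slc30a2 in MCE mouse 5 (11.6 CPM, next 8.46), Actr3b in FCE mouse 27 (6.59 CPM, next 2.97), Retn in FCE mouse 25 (18.5 CPM, next 10.6), Pdgfrb in FCE mouse 27 (18.5 CPM, next 14.3), Eno1 in MCE mouse 27 (7.29 CPM, next 4.68), Socs2 in MCE mouse 28 (65.4 CPM, next 41.5), Nr4a3 in MCE mouse 28 (4.38 CPM, next 2.03), Plin1 in MCE mouse 28 (6.82 CPM, next 4.31), Pax7 in FCE mouse 1 (5.81 CPM, next 3.4) and Alb in FCE mouse 26 (77.3 CPM, next 18). It was the lowest for Tead1 in FCE mouse 25 (169 CPM, next 205) and Irf9 in FCE mouse 28 (10.1 CPM, next 13.8). MCE mouse 28 accounts for 3 of the 13 and FCE mice 25, 27 and 28 for 2 each. MCE mouse 28 is also high in liver markers and FCE mice 27 and 28 in neuron markers, FCE mouse 25 in neither, and the part of those transcripts was not tested.

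The female-to-male difference of 31 named genes differed between running and locked controls by the interaction test in limma (adjusted p of 0.05 or less). The log2 interaction, running minus locked, was positive for Cacna2d4 (2.27, adjusted p = 0.0471), Musk (0.87, adjusted p = 0.00848), Phkg1 (0.75, adjusted p = 3.30e-07), Actn3 (0.62, adjusted p = 0.00137), Rapsn (0.56, adjusted p = 0.00370) and Myh4 (0.52, adjusted p = 0.00102). It was smaller and positive for Cacna2d1 (0.52, adjusted p = 0.00196), Tead1 (0.45, adjusted p = 0.0162) and Hk2 (0.38, adjusted p = 0.0124). Negative values below -0.6 were found for Isg15 (-1.98, adjusted p = 0.00922), Cfd (-1.44, adjusted p = 0.0118), Hba-a1 (-1.36, adjusted p = 0.0144), Retn (-1.27, adjusted p = 0.0406), Dcn (-1.16, adjusted p = 1.61e-04), Ptprc (-1.04, adjusted p = 0.0482), Rpl34 (-0.85, adjusted p = 7.88e-05), Dpep1 (-0.81, adjusted p = 0.0114) and Rps19 (-0.63, adjusted p = 8.30e-04). The other negative values were those of Fbxo30 (-0.56, adjusted p = 0.0326), Pdgfra (-0.55, adjusted p = 0.0376), Col4a1 (-0.53, adjusted p = 0.00249), Kcnj8 (-0.52, adjusted p = 0.0354), Pdgfrb (-0.52, adjusted p = 0.0366), Pdhb (-0.42, adjusted p = 0.00486), Nrp1 (-0.41, adjusted p = 0.0183), Hadh (-0.35, adjusted p = 0.0123), Ndufv3 (-0.34, adjusted p = 0.0319), Ndufs4 (-0.33, adjusted p = 0.00716), Cox7a1 (-0.33, adjusted p = 0.0351), Fh1 (-0.31, adjusted p = 0.0206) and Mpc2 (-0.29, adjusted p = 0.0254).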

How the results depend on the processing

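The count of called autosomal genes between FCE and MCE mice was 1181 and lay between 864 and 1424 under DESeq2, edgeR's quasi-likelihood test, limma trend, other scalings, filters, sets of mice, quality weights, marker covariates and adjustment over autosomes only. It was 441 with a 1.5-fold threshold and 690 without FCE mice 27 and 28, and it ranged from 826 (without MCE mouse 10) to 1246 (without MCE mouse 26) with 1 mouse left out. Thinned counts gave 1000 calls and leaving out Gm42418 and mt-Rnr2 gave 1172. Without FCE mice 27 and 28 the sex by wheel interaction gave 989 calls in place of 1533, and with thinned counts it gave 1199. For the sex by genotype interaction, 0 calls became 3 with DESeq2, 2 with all 56 mice (the pancreas genes Ins1 and Ins2, high in MCE mouse 28) and 0 to 2 with 1 mouse left out. Counts of the other comparisons stayed within 1.5 times under their alternatives. The cause of these changes was not tested, apart from the fewer genes that a fold threshold admits and the fewer mice in a fit.

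With the mouse number as a replicate block over the running mice, 669 genes were called, 579 of them among the 1181. The numbers gave no sign of pairing the mice. For the 5 numbers shared by FCE and MCE mice, deviations from the group means correlated at -0.11 to 0.058. Of the 5 females, 0 correlated best with the male of the same number. Correlations over 5 numbers cannot show that no weak pairing exists.

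Of 102 named genes that passed, 43 kept direction and call under each of the 30 to 33 alternatives in which they were tested, and 25 lost the call with some mouse left out. With another tool, the call was lost for Cdh15 and Sgk1 in DESeq2 and for Cdh15, Sgk1 and Isg15 in edgeR's quasi-likelihood test. In limma trend it was lost for Cdh15, Tnni2 and Trdn. Cfd, itself one of the adipocyte markers, changed sign to -0.033 with the mean of those markers as a covariate (adjusted p = 0.917). The other changes of sign were in defining markers that did not pass, with these log2 values. Myh4 (-0.0017) was 0.0047 with DESeq2, 0.0018 with edgeR's quasi-likelihood test, 0.0013 with DESeq2 size factors, 0.012 with upper-quartile scaling, 0.0024 with 10 counts in every mouse, 0.0058 with only the 14 mice, 0.064 with the adipocyte covariate, 0.011 with FCE 26, MCE 5 and MCE 28 left out, 0.0016 with thinned counts and -0.038 to 0.022 with 1 mouse left out. Pdgfra (0.0068) was -0.0036 with no filter, -0.0030 with all 56 mice, -0.0076 with quality weights, -0.15 with the adipocyte covariate, -0.13 with FCE 26, MCE 5 and MCE 28 left out, -0.012 with thinned counts and -0.090 to 0.043 with 1 mouse left out. Ptprc (0.027) was -0.68 with the adipocyte covariate, -0.19 with FCE 26, MCE 5 and MCE 28 left out, -0.016 with thinned counts and -0.18 to 0.15 with 1 mouse left out. Alb (0.30) was -0.054 with DESeq2, -0.047 with edgeR's quasi-likelihood test, -1.04 with the adipocyte covariate and -0.12 to 0.71 with 1 mouse left out. Hba-a1 (0.077) was -0.028 with the adipocyte covariate and -0.040 to 0.18 with 1 mouse left out. Adipoq (0.70) was -0.34 with the adipocyte covariate. Pax7 (0.070) was -0.023 with FCE 26, MCE 5 and MCE 28 left out and -0.065 to 0.16 with 1 mouse left out. Female libraries were shallower, so genes with few counts were measured less precisely in females, and differences in genes below the filter could not be tested at this depth.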
